A study of Mus musculus with 40 samples.

Results

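Trimethylation of lysine 9 of histone H3 (H3K9me3) was mapped by chromatin immunoprecipitation and sequencing in mouse T helper 2 (Th2) cells. The cells were labelled as with or without the gene Setdb1, which encodes the enzyme SETDB1, and the peak lists of both genotypes were compared. The wild-type (WT) list held 12222 peaks on chromosomes 1 to 19 and X, and the Setdb1 knockout (KO) list held 1700. These 13922 peaks were all of both lists on those chromosomes, out of 463822 peaks in the 11 lists of the series read here. Another 11 WT and 8 KO peaks on chromosome Y were left out. No measured value was used to choose them.

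H3K9me3 marks silenced chromatin. SETDB1 places it on euchromatic genes and on repeats such as endogenous retroviruses, usually where zinc finger proteins of the KRAB family and their partner TRIM28 have bound. SUV39H1 places the same mark mainly at pericentric repeats. In Th2 cells, which make IL-4, IL-5 and IL-13 under the factor GATA3, the genes of the opposing Th1 programme (Tbx21, Stat4, Ifng) must be kept low.

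CD4+ T cells came from spleens of C57BL/6 mice labelled Setdb1+/+ (WT) or Setdb1-/- (KO). They were cultured for 6 days with IL-4 at 50 ng/mL, an antibody to interferon gamma, anti-CD3 at 10 ug/mL and anti-CD28 at 1 ug/mL, with IL-2 at 30 IU/mL. The labels do not say how the deletion was made or to which cells it was limited. H3K9me3 lists of other cells were read beside these. They came from Th2 cells labelled Suv39h1 KO, with the same 6 days of culture, and from naive cells at culture day 0, WT and Setdb1 KO. The naive Setdb1 KO list came from 1 labelled sample, and each other H3K9me3 list condensed 2 labelled replicates into 1. No peak count therefore has a replicate error, and differences between the lists are described without a test. Read depth of the chromatin libraries is unknown from the files, and a weaker mark and fewer regions called cannot be told apart.

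RNA of the same cell type was sequenced in 3 libraries per genotype and gave the independent readout. Total reads ran from 10.1 to 13.3 M in WT and from 36.3 to 44.7 M in KO. Setdb1 RNA was higher, not lower, in the libraries labelled Setdb1 KO: 694, 933 and 841 normalised reads in WT against 8070, 9044 and 8342. A normalised read is a read per gene after division by the size factor of its library. These values sum over the whole gene, so they do not show whether a deleted part was read. All of 10 T cell identity genes were present in both genotypes, with a summed level from 64791 to 66391 in WT and from 46217 to 49711 in KO, and 2 were higher and 4 lower. The summed level of 7 B cell markers ran from 22.2 to 52.4 in WT and from 51.0 to 54.2 in KO, with Ms4a1 and Blnk among those at 0 in WT. Myeloid markers (8) ran from 1635 to 2077 in WT and from 5098 to 5857 in KO, with Spi1 and Lyz2 at 0 in WT. Most of that level was Adgre1, which encodes the macrophage antigen F4/80 and has 3 lost peaks. It went from 1482, 1243 and 1602 to 4659, 5334 and 5438 (log2 1.84, limma adjusted p = 0.021), and the call was lost without WT replicate 2 (0.0616), KO replicate 2 (0.0551) or KO replicate 3 (0.0564). Markers of NK and CD8 cells (7) ran from 11120 to 14386 in WT and from 5673 to 5726 in KO, with Klrb1c, Cd8a and Ncr1 at 0 in WT. In WT nearly all of that level lay in 3 of the 7, those with a mean of at least 10. Of 5 tested, 2 were higher and 2 lower in KO, beside 29.3% and 24.7% of all genes tested. Erythroid and platelet markers (7) ran from 35.3 to 79.8 in WT, with Ppbp, Pf4 and Hbb-bs among those at 0, and from 390 to 440.2 in KO, with Hbb-bs at 0. The part of these levels in the results below was not tested.

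The sequences that the RNA results turn on are the promoter windows of genes at lost, kept and KO-only peaks. A lost peak is a WT peak that no KO peak overlaps by 1 bp or more, a kept peak is a WT peak that a KO peak overlaps, and a KO-only peak is a KO peak that no WT peak overlaps. Each window has 300 bases around an annotated start, printed on the gene's strand from RefSeq (GRCm38.p6), with each CpG in capitals. Stag3, Sh3bgrl2 and Trerf1 are printed for lost peaks, Tcfl5 for kept peaks and Zfp37 for KO-only peaks. They were picked among genes whose RNA differed between the genotypes and need not be typical of their class. Stag3 has 30 CpG, Sh3bgrl2 32, Trerf1 5, Tcfl5 35 and Zfp37 17. The class medians were 3 at lost, 2 at kept and 13 at KO-only peaks.
Stag3 (chr5:138280259-138280558, plus strand): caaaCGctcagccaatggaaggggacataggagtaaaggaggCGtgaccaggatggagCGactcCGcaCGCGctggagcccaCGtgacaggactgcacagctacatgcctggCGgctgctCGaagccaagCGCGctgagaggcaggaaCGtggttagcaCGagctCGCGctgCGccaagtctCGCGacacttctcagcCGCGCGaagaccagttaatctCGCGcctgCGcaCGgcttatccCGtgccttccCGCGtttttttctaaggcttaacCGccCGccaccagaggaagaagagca
Sh3bgrl2 (chr9:83548088-83548387, plus strand): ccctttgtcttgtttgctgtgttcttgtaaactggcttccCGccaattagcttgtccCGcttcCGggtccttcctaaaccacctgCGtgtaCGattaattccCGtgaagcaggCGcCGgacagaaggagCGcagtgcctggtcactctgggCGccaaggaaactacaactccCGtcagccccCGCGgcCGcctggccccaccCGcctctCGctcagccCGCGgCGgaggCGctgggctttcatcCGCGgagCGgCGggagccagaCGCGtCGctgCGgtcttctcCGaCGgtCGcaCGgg
Trerf1 (chr17:47229980-47230279, plus strand): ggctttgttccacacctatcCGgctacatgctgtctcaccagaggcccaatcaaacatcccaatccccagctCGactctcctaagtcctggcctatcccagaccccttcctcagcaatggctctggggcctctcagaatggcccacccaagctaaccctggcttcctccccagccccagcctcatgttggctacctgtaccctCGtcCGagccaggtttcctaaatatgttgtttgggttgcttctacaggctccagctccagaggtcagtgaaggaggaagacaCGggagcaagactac
Tcfl5 (chr2:180642642-180642941, minus strand): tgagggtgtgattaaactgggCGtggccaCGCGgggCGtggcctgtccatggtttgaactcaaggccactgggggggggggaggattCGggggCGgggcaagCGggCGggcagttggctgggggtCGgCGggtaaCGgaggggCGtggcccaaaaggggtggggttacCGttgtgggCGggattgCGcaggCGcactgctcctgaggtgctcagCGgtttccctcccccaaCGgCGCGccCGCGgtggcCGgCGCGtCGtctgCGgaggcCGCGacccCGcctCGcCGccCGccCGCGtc
Zfp37 (chr4:62208153-62208452, minus strand): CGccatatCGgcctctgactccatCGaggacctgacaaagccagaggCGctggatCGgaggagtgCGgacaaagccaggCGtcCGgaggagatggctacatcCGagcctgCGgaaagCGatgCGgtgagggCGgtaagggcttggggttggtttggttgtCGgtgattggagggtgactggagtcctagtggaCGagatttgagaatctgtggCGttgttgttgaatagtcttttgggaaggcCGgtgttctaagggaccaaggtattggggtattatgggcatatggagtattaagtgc

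Most WT peaks had no counterpart in the KO list. Of the 12222 WT peaks 11690 (95.6%) were lost and 532 (4.35%) were kept. Of the 1700 KO peaks 522 (30.7%) overlapped a WT peak and 1178 (69.3%) were KO-only. WT peaks covered 19.5 Mb and KO peaks 2.55 Mb, a ratio of 7.65 in length and 7.19 in number. The 1.49965 Mb that the lists shared was 7.70% of the WT bases and 58.9% of the KO bases. Inside kept peaks 64.2% of the bases were also under a KO peak, and 118 kept peaks matched a KO peak within 100 bp at both ends.

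Kept peaks were long and KO-only peaks were short. The median length was 1050 bp for lost, 2450 bp for kept and 450 bp for KO-only peaks, and 347 KO-only peaks (29.5%) had the shortest length in either list, 300 bp. The share of WT peaks kept was 1.12% below 500 bp (18 of 1608) and 3.09% between 1 and 2 kb (113 of 3658). It was 22.9% between 5 and 10 kb (74 of 323) and 69.3% at 10 kb or more (52 of 75). Of the 100 longest WT peaks 62 were kept, and of the 100 with the highest score, as the authors' list gives it, 55. A long peak has more bases that an overlap of 1 bp can meet. Of the KO peaks that reached 5 kb, 76 overlapped a WT peak and 8 did not.

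**Figure D1:**
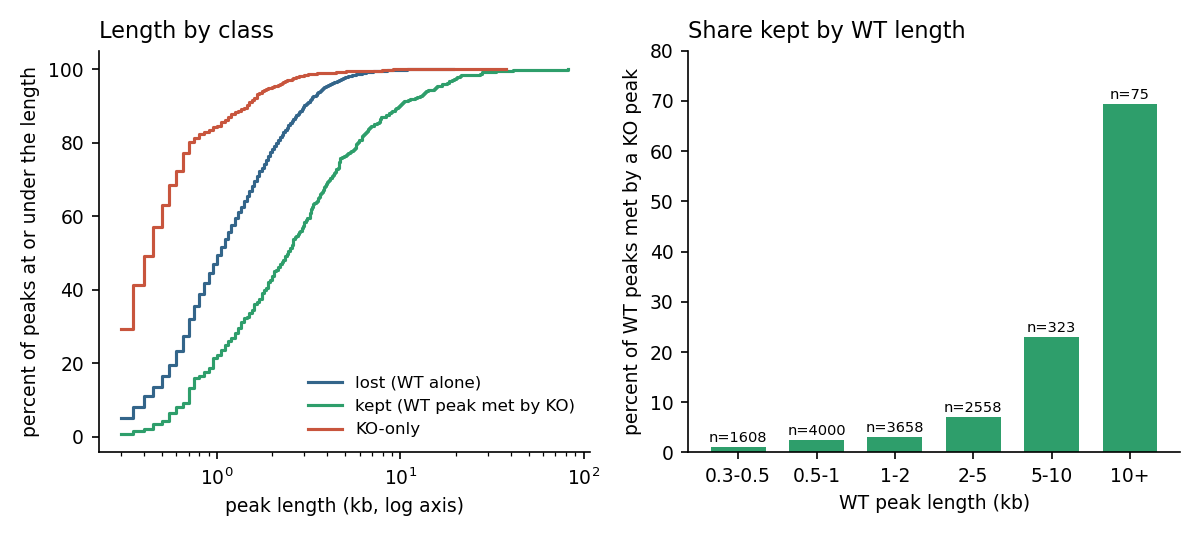
Left, percent of peaks at or under a length (kb, log axis) for lost, kept and KO-only peaks. Right, percent of WT peaks met by a KO peak in each class of WT peak length (kb), with the number of WT peaks above each bar. The kept curve lies to the right of the lost curve (medians 2450 and 1050 bp), and the share kept runs from 1.12% to 69.3%.

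The KO list was concentrated on chromosome 4. That chromosome held 229 of the KO peaks (13.5%) against 706 of the WT peaks (5.78%), and 27.3% of the KO bases. For every 100 WT bases there, 53.0 KO bases were called. Chromosome 19 lay at the other end, with 15 KO peaks and 2.35 KO bases per 100 WT bases. The X chromosome was nearly bare in both lists, with 32 WT and 13 KO peaks. It was also sparse in the naive lists, with 37 peaks in WT and 22 in Setdb1 KO cells, and in the Th2 Suv39h1 KO list, where 440 peaks were 1.01% of the list. In windows of 1 Mb, the 20 richest held 49.7% of all KO bases but 9.31% of all WT bases.

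**Figure D2:**
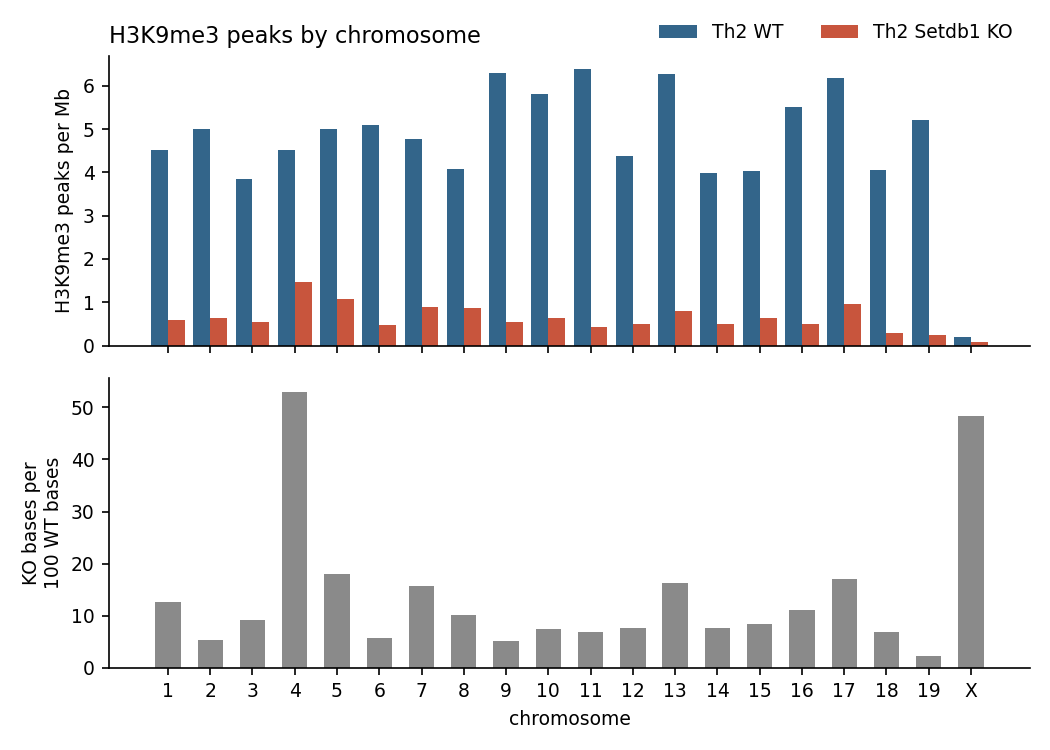
Top, H3K9me3 peaks per Mb, up to the last annotated gene, on each chromosome in Th2 WT and Th2 Setdb1 KO cells. Bottom, KO bases per 100 WT bases. Chromosome 4 stands highest at 53.0, followed by X, which rests on 32 WT and 13 KO peaks.

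Several clusters of multicopy genes held long domains in both lists. Between 147 and 148 Mb of chromosome 4 a cluster of zinc finger genes (Zfp978, Zfp982, Zfp985 and others) carried 244.4 kb of WT and 254.95 kb of KO peaks. The window from 146 to 147 Mb beside it carried 94.75 and 108.3 kb. The longest peak of each list covered the end of the Ugt1a cluster on chromosome 1, whose genes encode glucuronosyltransferases, and measured 81.6 kb in WT and 81.7 kb in KO. Both peaks also covered all 18.8 kb of Hjurp and were met by a peak of all 9 other lists, marks of active chromatin included. The Cyp3a window on chromosome 5 (145 to 146 Mb), which holds cytochrome P450 genes of drug metabolism, had 49.65 kb in WT and 88.9 kb in KO. The window of the sperm motility kinases Smok2a and Smok2b on chromosome 17 (13 to 14 Mb) had 64.5 and 83.35 kb. In such arrays reads may map to more than 1 copy, and the sources used here do not say how the authors placed them.

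Other windows had little of their WT length called in KO. At 22 to 23 Mb of chromosome 17, with Zfp758, Zfp944 and Zfp945, 78.4 kb of WT peaks faced 0.65 kb in KO. The window of Tnfsf4 and Fasl on chromosome 1 (161 to 162 Mb), which encode the T cell ligands OX40L and FasL, went from 79.3 to 4.6 kb. The window of Il7r on chromosome 15 (9 to 10 Mb), the receptor for the survival cytokine IL-7, went from 74.5 to 4.7 kb. At Prdm1 on chromosome 10 (44 to 45 Mb), which encodes the repressor BLIMP-1, 77.25 kb stood against 16.3 kb. The chitinase-like cluster on chromosome 3 (106 to 107 Mb) lay between these extremes, with 149.5 and 28.45 kb.

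The highest-scoring kept peaks lay at a ribosomal RNA sequence (Rn18s-rs5, score 230 in WT and 186 in KO), at Sfi1 and inside Cdk8, Cmss1, Pcca and Cpeb4. Several of these were also in most of the other lists: the peaks at Rn18s-rs5, Cdk8 and Cmss1 were met by a peak of all 9 other lists, marks of active chromatin included. Lost peaks reached lower scores, up to 103 for a peak 35.0 kb from Drd3 and 100 for a peak inside Foxp1. The longest lost peak, 19.3 kb, lay over Gm1966, and lost peaks of 15, 14.45 and 13.6 kb lay over Zfp873, Zfp68 and Zfp758.

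Zinc finger genes named Zfp were met by WT peaks more often than other genes, and their clusters differed from each other. Of 416 annotated Zfp genes 153 (36.8%) overlapped a WT peak, against 14.4% of all protein-coding genes. A KO peak overlapped 40 (9.62%), against 1.92% of protein-coding genes. On chromosome 4 the Zfp genes held 245 kb of WT and 252 kb of KO peaks, summed over genes, in 16 and 11 of 28 genes. On chromosome 13 they held 90.8 kb of WT peaks in 21 of 39 genes and none in KO. Chromosome 17 went from 131 to 9.23 kb and chromosome 7 from 137 to 60.1 kb. Peaks in overlapping genes are counted once per gene in these sums.

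**Figure D3:**
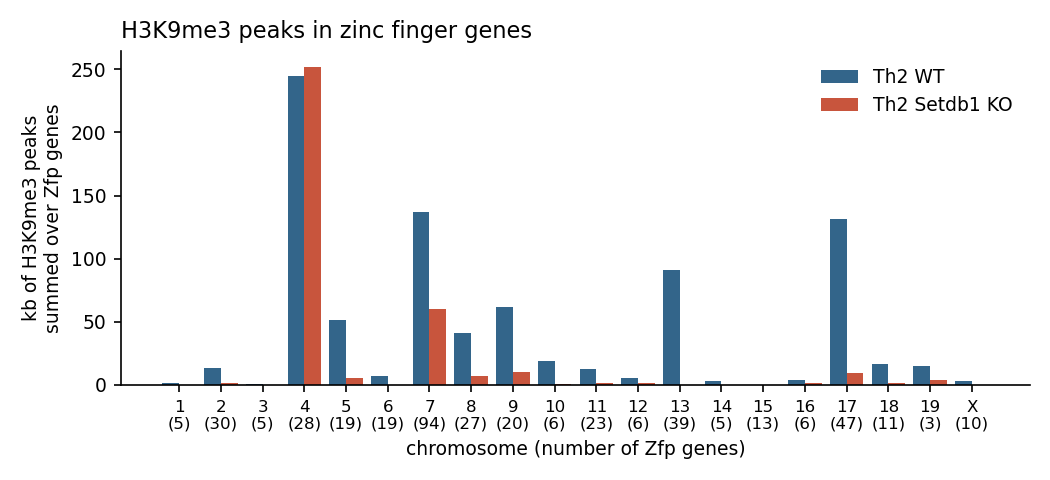
Length of H3K9me3 peaks (kb) summed over the Zfp genes of each chromosome in Th2 WT and Th2 Setdb1 KO cells, with the number of Zfp genes in brackets. On chromosome 4 both bars stand at about the same height (245 and 252 kb), whereas chromosome 13 has 90.8 kb in WT and none in KO.

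Among other families, 19 of 58 clustered protocadherin genes, which encode neuronal adhesion proteins and share nested gene spans, overlapped a WT peak and none a KO peak. The other lists are read beside 14.4% of protein-coding genes with a WT peak and 1.92% with a KO peak. Of 28 Th1 genes 4 (14.3%) overlapped a WT peak and none a KO peak, which is near those shares. Of 24 Th2 genes 7 (29.2%) overlapped a WT peak and 2 (8.33%) a KO peak, both above those shares but few genes. Of 29 interferon-stimulated genes 4 (13.8%) overlapped a WT peak and none a KO peak, again near the shares of protein-coding genes. Of 1428 olfactory receptor genes 5 overlapped a WT peak, and none of 233 type 1 vomeronasal receptor genes did.

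KO-only peaks lay apart from the WT peaks. Their median distance to the nearest WT peak was 290 kb, and 1021 of them (86.7%) were in none of the other H3K9me3 lists, those of naive WT, naive Setdb1 KO and Th2 Suv39h1 KO cells. They gathered in places: 38 windows of 1 Mb with at least 5 each held 391 of them. Between 153 and 154 Mb of chromosome 4 there were 31 KO-only peaks and 2 WT peaks. Some long genes held many. Cdh13, which encodes the adhesion protein T-cadherin and spans 1185 kb, had 22, Caln1 had 13 and Spock1 had 12, all picked after their values were seen. The protein-coding genes with a KO-only peak had a median length of 270 kb, against 63.4 kb for those with a lost peak and 17.3 kb for all. The longest KO-only peak, 37.5 kb, covered Mup5, of the major urinary proteins, in a window with 0.7 kb of WT peaks (chromosome 4, 61 to 62 Mb). There the naive WT, naive Setdb1 KO and Th2 Suv39h1 KO lists did have a peak.

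One KO-only peak covered the 5′ part of a gene that defines these cells. At Cd4, the T cell coreceptor, a peak of 8850 bp (chr6:124879551-124888400, mm10) ranked 51 by score among the 1700 KO peaks. The naive Setdb1 KO list had a peak at nearly the same place (chr6:124879401-124888750), and the Th2 WT, naive WT and Th2 Suv39h1 KO lists had none. Peaks of active marks were also long there in KO. H3K27ac covered 9388 bp in Th2 Setdb1 KO and 5533 bp in WT, and H3K4me1 covered 9410 bp and 4211 bp. Cd4 RNA was 8626, 9239 and 10750 in WT and 5793, 5853 and 6132 in KO, a log2 difference of -0.68 ± 0.13 (SE, limma adjusted p = 1.3e-04). The groups did not overlap. DNA copy number at this place was not tested.

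Another KO-only peak (chr11:87755851-87757700, mm10) covered the hairpin of Mir142, a microRNA gene of blood cells. Its mature forms from RefSeq are shown with the seed, bases 2 to 8, in capitals.
miR-142a-5p: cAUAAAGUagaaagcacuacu
miR-142a-3p: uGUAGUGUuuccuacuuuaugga
The level of either form was not measured here.

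The other chromatin lists separated the classes. Naive WT cells had an H3K9me3 peak at 41.6% of lost, 77.1% of kept and 5.69% of KO-only peaks. Naive Setdb1 KO cells had one at 2.71%, 54.5% and 6.96%. Th2 cells without Suv39h1 had one at 96.5% of lost and 81.0% of kept peaks, in a list of 43379 peaks, against 5.43% of KO-only peaks. The naive Setdb1 KO list comes from 1 labelled sample, and lists of unequal length give unequal chances of overlap.

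H3K27ac and H3K4me1 met more lost and more kept peaks in KO than in WT cells. These lists and those of open sites have no labelled replicate in either genotype, so the differences are described without a test. H3K27ac, found at active promoters and enhancers, met 7.52% of lost peaks in WT and 11.0% in KO. H3K4me1, found at enhancers, met 19.2% and 28.6%. Open sites met 8.44% and 8.25%. At kept peaks the shares were 12.97% and 32.5% for H3K27ac, 23.1% and 42.3% for H3K4me1, and 35.0% and 32.7% for open sites. The H3K27ac and H3K4me1 lists were themselves longer in KO (40670 against 31218 and 97020 against 76251 peaks) and the open-site list shorter (58480 against 92071). With the longer list cut to the length of the shorter by score, the KO shares of lost peaks were 9.02% for H3K27ac and 25.5% for H3K4me1, still above WT. The WT share of open sites at lost peaks was then 5.45%, below KO. Kept peaks were not counted this way.

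**Figure D4:**
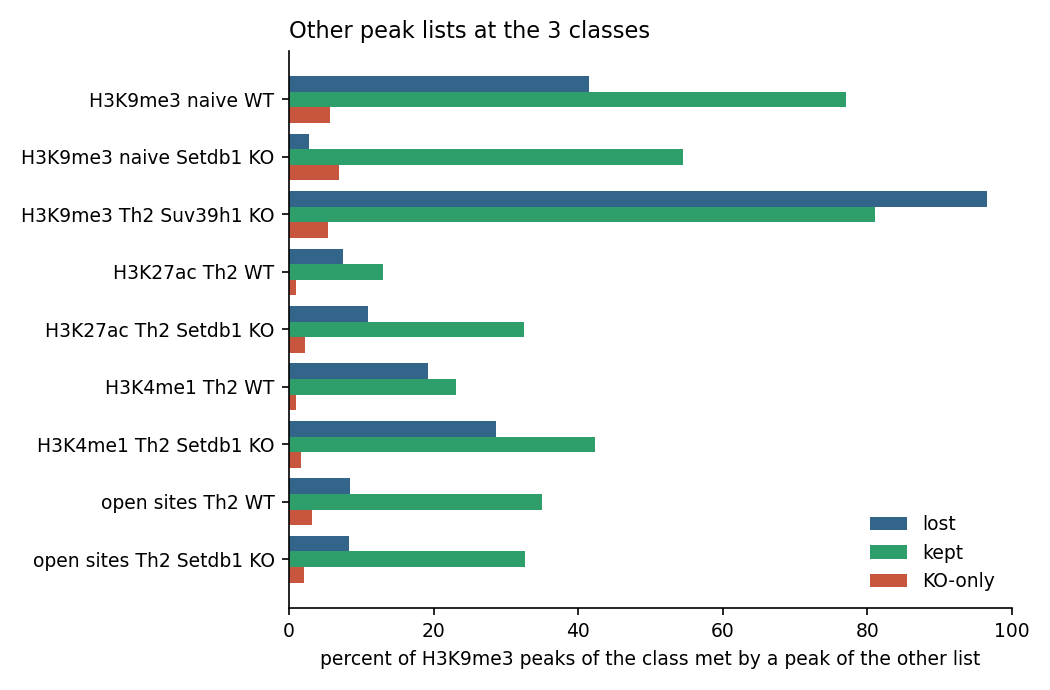
Percent of lost, kept and KO-only H3K9me3 peaks met by a peak of each of 9 other lists of the series. KO-only peaks stay at or below 6.96% in every list, and the naive Setdb1 KO list meets 54.5% of kept but 2.71% of lost peaks.

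RNA was then compared between the genotypes for the genes at these peaks, as KO minus WT on the scale of log2(normalised reads + 1), which understates the change of low genes. Over all 17254 genes tested, 54% passed limma's test at an adjusted p under 0.05, 29.3% higher and 24.7% lower in KO. Fewer cells of a type and less RNA per cell cannot be told apart in such bulk libraries. The labels do not say that the libraries came from separate animals or cultures, so p-values measure the spread between them only.

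Among genes with a lost peak inside their span, the RNA calls were close to this background. Of 4278 such genes 2658 were tested, 874 (32.9%) were higher and 645 (24.3%) lower. Of 177 tested genes with a kept peak 58 (32.8%) were higher and 31 (17.5%) lower, the latter under the 24.7% of all genes. Of 112 with a KO-only peak 19 (17.0%) were higher and 11 (9.82%) lower, both under the shares of all genes. Up to 200 kb distance changed little: 30.3% of genes within 5 kb of a lost peak and 31.3% of those at 50 to 200 kb were higher. Beyond 200 kb the share was smaller, at 24.0%. The median log2 difference was 0.18 at lost peaks and 0.12 over all matched genes. Calls of at least 4-fold were 204 (7.67%) higher and 196 (7.37%) lower at lost peaks, beside 7.89% and 8.1% of all genes. With genes that had no read in 1 genotype set at their bound (a floor of 3 reads per library) the medians were 0.08 and 0.

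RNA calls were also counted by the active mark at the lost peak. Where H3K27ac was called in KO alone (595 lost peaks), 102 of 221 tested genes (46.2%) were higher and 43 (19.5%) lower. Where it was called in WT alone (191 peaks), 15 of 66 (22.7%) were higher and 28 (42.4%) lower. Where it was called in both (688 peaks), 28.2% of 248 genes were higher and 30.6% lower. Where it was called in neither (10216 peaks), 32.3% of 2431 genes were higher and 24.0% lower. The H3K27ac lists have no labelled replicate in either genotype. H3K27ac at a gene and its RNA are both readouts of the same genotypes, and no test of this difference was made.

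Genes whose promoter window overlapped a lost peak by 1 bp or more were few. They numbered 119, of which 52 were in the RNA table and 24 passed the filter on low values. Of these 24, 12 were higher and 1 was lower in KO, beside the backgrounds of 29.3% and 24.7%. The filter counted all 18 libraries, KO included, so a gene low in WT could enter through its KO values. Such a gene could hardly be called lower, here and at the kept and KO-only promoters below. All genes tested passed the same filter. When at least 50% of the window had to lie under the peak, fewer of the 24 genes remained. Of those, 6 were higher and the others were not called, so the 6 are not a share of the 24. In 17 of the 24 the libraries of the genotypes did not overlap. Over all genes tested every KO library was above every WT library in 34.8% and below in 29.8%. At the windows of the 12 higher genes, the Th2 Suv39h1 KO list had H3K9me3 at 12 and the naive Setdb1 KO list at none. Over all 24 tested genes these lists had it at 23 and at none.

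Stag3, a cohesin subunit of meiotic chromosomes, had the largest difference of them. Its values were 88.7, 40.8 and 24.9 in WT and 2194, 2398 and 2132 in KO. All KO libraries stood far above all WT libraries, with a log2 difference of 5.61 ± 0.51 (SE, limma adjusted p = 1.9e-08). Its window is rich in CpG, with 30, and the lost peak of 900 bp (chr5:138280451-138281350) met H3K27ac and H3K4me1 in KO alone and open sites in both genotypes. It covered 36% of the window. Sh3bgrl2, a small protein of the thioredoxin fold, went from 40.3, 35.3 and 42.4 to 656, 611 and 858, a log2 difference of 4.13 ± 0.52 (adjusted p = 1.4e-06). Its window has 32 CpG and lay wholly inside a lost peak of 3250 bp. Trerf1, a zinc finger regulator of transcription, went from 425, 425 and 427 to 1536, 1896 and 1889, a log2 difference of 2.05 ± 0.26 (adjusted p = 1.5e-06). It carried 9 lost peaks along its 221 kb.

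Mdm4, an inhibitor of p53, was 2293, 2141 and 2362 in WT and 6173, 6476 and 6179 in KO, a log2 difference of 1.47 ± 0.10 (adjusted p = 5.6e-10). M1ap, a meiotic protein, had 8.07, 3.71 and 22.5 in WT and 95.0, 131 and 52.0 in KO, a log2 difference of 3.13 (adjusted p = 0.011). E2f6, a repressor that silences germline genes, differed by 1.18 on the log2 scale. The remaining higher genes were Rims3 (log2 4.86), Hykk (3.73), Zfp882 (1.70), Gm15446 (1.49), Klhl5 (0.69) and Ide (0.66). Kat8, a histone acetyltransferase, was the 1 lower gene, at -0.54. The lost peak covered little of some windows: 2% at Ide, 3.67% at Hykk, 11.3% at Kat8, 12% at E2f6 and 15% at Zfp882. It covered 37.3% at Gm15446, 50.7% at Rims3 and 100% at Mdm4, M1ap and Klhl5. M1ap lost its call without WT replicate 2 (limma adjusted p = 0.0564), and Klhl5 without WT replicate 3 (0.0978) or KO replicate 3 (0.0591).

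**Figure D5:**
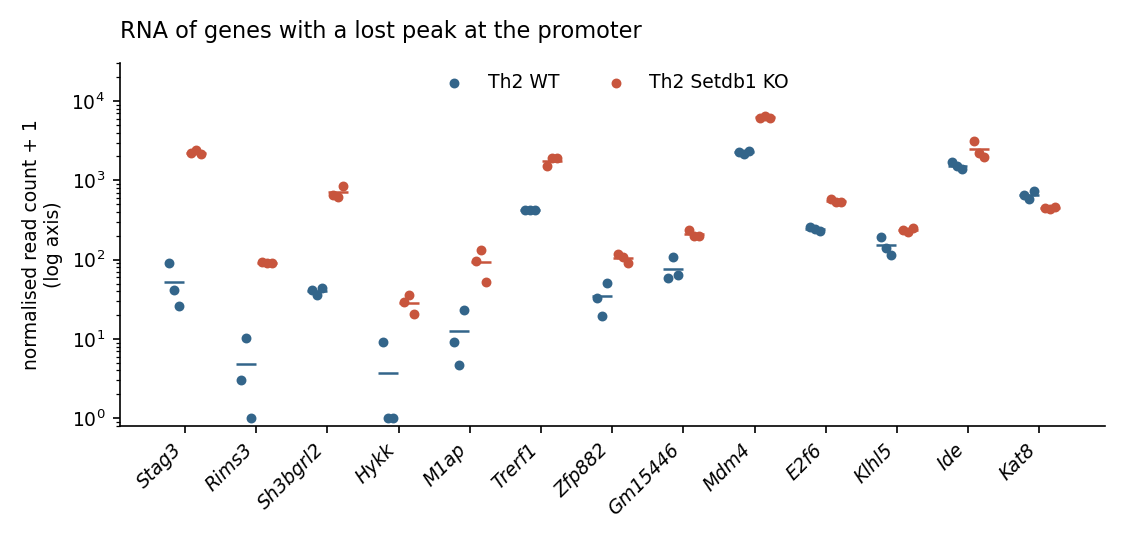
Normalised read count plus 1 (log axis) of the 13 genes with a lost peak at the promoter that passed the RNA test, with 1 point per library and a line at the mean of 3 libraries per genotype. From Stag3 to Ide the KO points lie above the WT points, and in Kat8 below.

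Genes with a kept peak at the promoter numbered 31, and of 12 tested 3 (25%) were higher, which is under the 29.3% of all genes tested. Tcfl5, a factor of spermatogenesis, had 2.02, 11.1 and 0 in WT and 79.9, 81.9 and 40.0 in KO, a log2 difference of 4.29 (adjusted p = 9.2e-05). Tasor, a subunit of the HUSH silencing complex, rose by 1.82. Zfp988 had 6.05, 0 and 0 in WT and 8.74, 8.06 and 6.00 in KO, overlapping groups (adjusted p = 0.041). Of 27 genes with a KO-only peak at the promoter 5 were tested and 2 were higher, too few to set beside that share. Zfp37 had 8.07, 0 and 0 in WT and 45.3, 56.9 and 44.0 in KO, a log2 difference of 4.57 (adjusted p = 7.0e-04). Lin7a, a scaffold of cell junctions, had 24.2, 3.71 and 24.9 in WT and 131, 112 and 199.8 in KO, a log2 difference of 3.31 (adjusted p = 0.0088). The call of Lin7a was lost without WT replicate 2 (limma adjusted p = 0.0594), and that of Zfp988 in 9 alternatives. Zfp37 and Lin7a had more RNA in the genotype whose list has the peak. The median number of CpG per window was 3 at lost, 2 at kept and 13 at KO-only peaks, and 7 over all windows.

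The Th1 genes with lost peaks were signalling genes. Stat4, the transducer of IL-12, had 5 lost peaks and went from 1143, 1073 and 993 to 3605, 2933 and 3684, a log2 difference of 1.67 ± 0.14 (adjusted p = 4.2e-09). Il18rap, a chain of the IL-18 receptor, had 2 lost peaks and a log2 difference of 3.07, and the kinase Txk had 2 and differed by 3.32. For Il18r1, with 2, the difference was 0.66 and missed the threshold (limma adjusted p = 0.10), which it passed without WT replicate 3 (1.05, adjusted p = 0.0114). Tbx21, the master regulator of Th1 cells, had its nearest lost peak 7.71 kb away, and its values were 2.02, 0 and 0 in WT and 17.9, 13.4 and 8.49 in KO (adjusted p = 9.2e-04). Ifng, 11.6 kb from a lost peak, went from 4.03, 7.42 and 9.98 to 114, 74.3 and 59.5. Of the 28 Th1 genes, with or without a peak, 14 were higher and 5 lower, beside 29.3% and 24.7% of all genes tested.

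Of 24 Th2 genes 6 had a lost peak, among them Il4, Pparg and Il1rl1. Il4 and Pparg were lower in RNA. Il1rl1, a chain of the IL-33 receptor, had 1460, 1282 and 1345 in WT and 625, 1031 and 527 in KO, a log2 difference of -0.96 that missed the threshold (limma adjusted p = 0.39). The lost peak at Il4 (chr11:53610851-53613750, score 60.1) overlapped the gene, and H3K27ac and H3K4me1 were called there in both genotypes. Il4 fell from 2176, 1759 and 1936 to 621, 663 and 567, a log2 difference of -1.66 ± 0.27 (adjusted p = 3.1e-05). Il13, 6.72 kb from a lost peak, differed by -1.70, and Il5, 26.9 kb away, by -1.66. The call of Il5 was lost without KO replicate 3 (limma adjusted p = 0.0587). The nuclear receptor gene Pparg had 6 lost peaks and differed by -2.71 (adjusted p = 0.0026). Gata3, 15.3 kb from a lost peak, had 2200, 2004 and 2303 in WT and 1883, 2467 and 2371 in KO, overlapping groups (log2 0.04, adjusted p = 0.90). Of 23 Th2 genes tested 3 were higher and 11 lower, beside the same 29.3% and 24.7%.

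Other genes with a lost peak went both ways. Foxp1, a factor of T cell quiescence, had 12 lost peaks and went from 256, 232 and 230 to 1797, 1701 and 1924, a log2 difference of 2.91 ± 0.13 (adjusted p = 1.0e-12). Tox, a factor of T cell development and exhaustion, had 4 lost peaks, with 2.02, 0 and 0 in WT and 81.1, 101 and 181 in KO (adjusted p = 5.4e-10). Acoxl, with 7, had no read in WT and was at least 21.8-fold higher in KO. Rtp4, an interferon-stimulated gene, was at least 20.8-fold higher. On the other side Slamf7, a receptor of activated lymphocytes, fell by 8.33 on the log2 scale, and Adm, which encodes adrenomedullin, fell by 8.46, each with 1 lost peak. Of the heterochromatin genes, Atf7ip, the partner that stabilises SETDB1, had 2 lost peaks and rose by 1.67, and Setdb2 had 1 and rose by 1.12. In that list of 25 genes 17 were higher and 2 lower, beside 29.3% and 24.7% of all genes tested.

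RNA of Zfp genes moved both ways with and without a peak. Of 116 tested Zfp genes with a lost peak 46 were higher and 24 lower, of 31 with a kept peak 13 were higher and 4 lower, and of 216 with no peak of either list 82 were higher and 35 lower. The shares over all genes tested were 29.3% higher and 24.7% lower. Among the longest lost domains, the gene over the 19.3 kb peak, Gm1966, rose by 2.02. Zfp758 had 619, 479 and 639 in WT and 580, 544 and 525 in KO (log2 -0.06, adjusted p = 0.76).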

How the data were processed

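H3K9me3 was immunoprecipitated with the antibody ab8898, per the labels. Tools listed in the notes on processing that the submitters gave are MACS2 2.1.0, BWA 0.7.10, TopHat2 2.0.5, cutadapt 1.3 and DESeq, with the mm10 genome. The deposited score of an H3K9me3 peak is the authors' own. Neither its caller nor its scale is stated there, and the lowest score in either list was 13.0 and every peak started on a multiple of 50 bp. The other peak lists were ranked by their own deposited score. The RNA values are a signal made by the authors, gene read numbers scaled by each library's size factor. Undoing the scaling gave whole numbers for 100% of values (tolerance 0.01). All 39179 genes were present as 2 identical copies, and 1 was used. Columns not mapped to a sample: 0.

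Peaks were shared at an overlap of 1 bp or more. Genes came from RefSeq GRCm38.p6 (49554 genes, whole spans without strand), and 94.3% of tested genes were matched by symbol. Differences in RNA came from limma 3.58.1 with a mean trend, fitted to log2 of the value plus a pseudocount of 1, with 18 libraries in 1 fit, genes at 10 or more in at least 2 libraries, and Benjamini-Hochberg adjustment at 0.05. The 18 libraries formed 6 groups that shared 1 estimate of the spread. They were naive cells, Th2 cells and Th2 cells moved to Th1 conditions, each WT and Setdb1 KO. edgeR 4.0.16 and DESeq2 1.42.0 on the recovered reads, other pseudocounts, filters and peak rules were alternatives. The fit was tested on simulated data. Floors and intervals cover counting error only.

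The gene lists and their members were chosen with earlier results of these data known. The rule for named genes took Setdb1, Suv39h1, Tbx21, Ifng, Gata3, Il4, Il5 and Il13, the 15 higher and 10 lower genes at lost peaks with the largest difference, genes at the 10 highest-scoring and 10 longest peaks of each class, the 5 genes with the most KO bases, and up to 4 members per list. The text names a selection. Genes with a promoter window at a peak, and genes picked after their values were seen, were added. No genome sequence or repeat annotation was used, so endogenous retroviruses were not measured. A few genes are not reported here.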

Additional observations from a re-analysis of the deposited data

How the results depend on the processing

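Peak counts moved with the score threshold, and shares of WT and KO peaks with the meaning of overlap and the list length. Keeping only the upper part of each list, from its median score, left 6111 WT and 850 KO peaks by construction, and 12.4 Mb of WT peaks. The shares met by the other list were then 4.55% of WT and 32.6% of KO peaks, close to those of the full lists. The remaining peaks met 2700 genes in WT and 403 in KO, with 2570 genes at lost peaks and 949 RNA calls among them. The share of WT peaks met by a KO peak was 2.60% when 50% of the peak had to be covered, and 13.5% for the 1700 highest-scoring WT peaks, which 13.8% of KO peaks met. Genes within 10 kb numbered 9638 (WT), 1169 (KO) and 9307 (lost), with 2625 RNA calls at lost peaks. Within 50 kb they were 20761, 2847 and 20277, with 5181 RNA calls at lost and 395 at KO peaks. With the other lists also kept at or above their median score, lost peaks met H3K27ac at 6.97% in KO and 4.79% in WT, H3K4me1 at 21.6% and 14.6%, open sites at 4.32% and 4.48%, and the Th2 Suv39h1 KO list at 83.1%. With 50% of the lost peak covered that last share was 95.6%. With 50% of a promoter window covered 6 genes were higher, out of fewer tested genes, and the others of these were not called. With equal lengths of the other lists the shares were 9.02% (H3K27ac, KO), 25.5% (H3K4me1, KO) and 5.45% (open sites, WT).

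RNA calls over all genes ran from 8333 to 8764 without each replicate in turn, calls at lost peaks from 1357 to 1430, at KO peaks from 100 to 114, higher genes at lost peaks from 776 to 836 and higher genes with a promoter at a lost peak from 11 to 12. Numbers shared by replicates do not pair the libraries: correlations of same-numbered deviations were 0.017, -0.0020 and 0.019, and 4 of 6 libraries correlated best with their own number. With the replicate block there were 9889 calls, 1677 at lost and 120 at KO peaks, 940 higher genes at lost peaks and 15 with a promoter there.

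Of 50 genes whose RNA the text gives 44 were called; the others were Gata3, Zfp68, Zfp758, Il18r1, Gbp8 and Il1rl1. The log2 difference of Gata3 turned to -0.0164, -0.0351 and -0.00647 without WT replicate 2, KO replicate 2 or KO replicate 3, in a range from -0.0351 to 0.160. That of Zfp758 turned to 0.0722 with TMM factors, 0.0646 with edgeR and 0.0125 without WT replicate 3, and ran from -0.195 to 0.0125 without each library in turn. That of Gbp8 turned to 0.0677 with TMM factors, 0.0696 with edgeR, 0.0123 without WT replicate 3 and 0.0297 without KO replicate 2, and ran from -0.166 to 0.0297 without each library. Il1rl1 was called when the Th2 libraries alone were fitted (adjusted p = 0.00167) and with the replicate block (3.36e-04), Zfp68 likewise (0.0275 and 0.0265), and Il18r1 with TMM factors (0.0477). Adgre1 lost its call with a pseudocount of 0.5 (0.0554). Il5 without KO replicate 3 (adjusted p = 0.0587), M1ap and Lin7a without WT replicate 2 (0.0564 and 0.0594), Klhl5 without WT or KO replicate 3 (0.0978 and 0.0591), Glb1 and Zfp873 without WT replicate 3 (0.0595 and 0.0575), and Zfp988 in 9 alternatives (0.0654 to 0.185) lost their calls; the cause was not tested. TMM moved the median of all tested genes from 0.13 to 0.24. Promoter counts, higher genes at lost peaks and the Suv39h1 share were varied after seeing the data. WT RNA libraries had fewer reads, so a value of 0 there is less certain than in KO.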

Other observations

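RNA of 3 immune gene families, with few lost peaks, is given as values. In the Schlafen family, which restrains T cell growth and viruses, 3 of 11 genes overlapped a WT peak and none a KO peak, and 8 of 9 tested were higher in RNA, beside 29.3% of all genes. Slfn10-ps, with 3 lost peaks, went from 233.9, 286 and 292 to 793, 877 and 865 normalised reads (log2 1.65, limma adjusted p = 5.8e-07). Among the PYHIN genes, sensors of DNA, 2 of 17 (11.8%) overlapped a WT peak, under the 14.4% of all protein-coding genes, and 9 of 12 tested were higher. Ifi213, with a lost peak, had no read in WT and 27.8, 37.6 and 49.0 in KO, which is at least 5.99-fold higher when each WT library is set to 3 reads. Of 12 guanylate-binding protein genes 3 overlapped a WT peak, and of 11 tested 4 were higher and 2 lower, beside 29.3% and 24.7% of all genes. Gbp7 went from 276, 223 and 225 to 1472, 1414 and 1842 (log2 2.70), whereas Gbp8 had 909, 777 and 995 in WT and 884, 740 and 932 in KO (adjusted p = 0.77).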
